A study of Mus musculus with 6 samples.

Results

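Immunoglobulin variable (V) and constant segments were described in 6 bulk RNA-seq libraries of mammary tumor tissue. Members were the genes named Ighv, Igkv, Iglv or Iglc, plus the heavy chain constant genes, Igkc and Jchain, whose expected counts summed to at least 50 over the 6 libraries. The members were thus selected on their summed counts, and the rule gave 57 members of 362 immunoglobulin genes listed by name and of 55385 genes in all. Of the other named genes, 139 were at 0 in every library and 166 were above 0 but under 50. The members were 8 of 185 Ighv, 34 of 160 Igkv, 2 of 3 Iglv and 3 of 4 Iglc genes, all 8 heavy chain constant genes, Igkc and Jchain. Because the rule used the counts themselves, the abundance of the members is a description. The members just inside the threshold were Igkv10-94 (51.0 counts), Igkv8-19 (56 counts) and Ighv1-80 (57.9 counts), and just outside it lay Igkv2-109 (49.9), Ighv1-72 (49.2) and Igkv4-61 (48.8).

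The mice were female NeuT/ATTAC mice, which carry a constitutively active rat ErbB2[V664E] transgene under the MMTV promoter and an FKBPv-caspase-8 fusion under the FABP4 promoter. AP20187 dimerizes the caspase fusion and partly ablates mammary fat, and per the protocol injections of 0.4 mg/kg began when the mice were 6 weeks old. The study's text describes the sequenced tumors as those of mice given AP20187, controls included, and the 3 control libraries carry the treatment label AP20187 Vehicle, which taken alone could also mean the vehicle of AP20187. The 3 DMHCA libraries came from mice that were also fed DMHCA, an oxysterol agonist of the liver X receptors, at 0.05% of the diet (about 100 mg/kg) from 8 weeks of age. The labels call the tissue mammary gland fibrosis, the study describes tumors, and Epcam, Krt8, Krt18 and Erbb2 were abundant in every library. The age at collection was not given in the sources used here. DMHCA 1 and DMHCA 3 were nearly identical over the whole transcriptome (biological coefficient of variation 0.0327, against 0.376 to 0.579 for the other 5 pairs within a group) and were summed to 1 sample for every test, which left 3 control against 2 DMHCA samples.

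Each B cell assembles 1 heavy chain V segment and 1 kappa or lambda V segment with short joining segments, and transcribes the result together with a constant gene. A naive B cell makes Ighm and Ighd from 1 primary transcript. After activation, class switching replaces Ighm with an IgG, IgE or IgA constant gene, and plasma cells secrete the antibody, with the J chain (Jchain) joining the units of polymeric IgM and IgA. Mouse antibodies mostly carry kappa light chains. In bulk tissue the spread of reads over V segments therefore tells how evenly the immunoglobulin RNA is divided among segments, but an expanded clone, a segment used by many clones and germline transcription cannot be told apart. Likewise, fewer B lineage cells and less immunoglobulin RNA per cell cannot be told apart.

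The heavy chain genes lie on mouse chromosome 12, the kappa genes on chromosome 6, the lambda genes on chromosome 16 and Jchain on chromosome 5. For the 6 V segments on which the segment results turn, the last 150 coding bases are shown, all within the second of 2 exons (GENCODE M21 transcripts, GRCm38). The capitals mark the tyrosine, tyrosine or phenylalanine, and cysteine codons that close the framework just before the third complementarity-determining region. Igkv14-111 was the highest kappa segment of 5 libraries, Igkv10-96 that of control 3, and Igkv13-85 differed most between control 1 and control 3. They lie at chr6:68256720-68256869 (plus strand), chr6:68631963-68632112 (minus strand) and chr6:68930269-68930418 (minus strand).
Igkv14-111: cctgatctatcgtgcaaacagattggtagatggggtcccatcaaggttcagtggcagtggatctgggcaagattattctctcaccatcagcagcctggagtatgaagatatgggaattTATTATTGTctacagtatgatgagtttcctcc
Igkv10-96: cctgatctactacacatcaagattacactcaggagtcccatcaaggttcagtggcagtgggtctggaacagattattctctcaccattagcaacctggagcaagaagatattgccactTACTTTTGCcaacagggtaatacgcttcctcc
Igkv13-85: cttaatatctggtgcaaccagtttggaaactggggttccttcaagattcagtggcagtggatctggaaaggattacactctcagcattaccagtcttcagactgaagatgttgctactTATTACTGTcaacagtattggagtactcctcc
Ighv5-17 led the heavy chain members of DMHCA 2, Ighv8-8 those of control 3 and Ighv1-82 those of control 1. They lie at chr12:113859149-113859298, chr12:115294062-115294211 and chr12:115952538-115952687, all on the minus strand.
Ighv5-17: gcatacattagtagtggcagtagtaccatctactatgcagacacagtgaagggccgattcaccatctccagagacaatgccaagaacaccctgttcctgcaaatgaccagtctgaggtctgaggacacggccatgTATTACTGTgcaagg
Ighv8-8: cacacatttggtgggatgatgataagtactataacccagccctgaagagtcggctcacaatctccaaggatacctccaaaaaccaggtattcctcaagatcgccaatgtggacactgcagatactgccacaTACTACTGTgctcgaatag
Ighv1-82: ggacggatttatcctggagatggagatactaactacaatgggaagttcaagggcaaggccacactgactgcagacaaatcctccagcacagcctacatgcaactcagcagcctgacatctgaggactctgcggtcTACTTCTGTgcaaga
Over these bases Igkv14-111 was 74.7% identical to Igkv10-96 and 74.8% to Igkv13-85, and the 3 heavy chain segments were 53.8% to 61.5% identical to each other. How well a segment can be told from its relatives varied: all of the 50-base words of Igkv14-111 occur in no other annotated gene, against 67.4% for Igkv10-96, 51.7% for Igkv13-85 and 85.1% for Ighv5-17. Over the 44 V members the median was 71.4% and the lowest 25.7%, and 7 segments had only unique words. Ighm, Ighd, Igha, Ighe and Igkc had only unique words, although the annotated gene Gm30211 overlaps Igkc on the same strand. Counts of single V segments with close relatives are therefore estimates of how shared reads were divided. The NeuT line is on an FVB background and the reference is that of another strain, and the effect of strain differences in V segments was not tested.

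Immunoglobulin RNA was concentrated in 1 control library, control 3, and to a lesser degree in control 1. The members took 0.0142%, 0.00200% and 0.102% of all gene counts in control 1, 2 and 3, and 0.00233%, 0.00226% and 0.00193% in DMHCA 1, 2 and 3. Summed as reads per 1000000 gene counts (CPM), they stood at 142, 19.97 and 1023 in control 1 to 3, and at 23.3, 22.6 and 19.3 in DMHCA 1 to 3. Control 2 was thus at the level of the DMHCA libraries, and the control mean (395 ± 547 CPM, SD, n = 3) rested on control 3. By CPM, 56 of the 57 members were highest in control 3 and 1 (Ighe) in control 1. Of all 19520 genes with a summed count of at least 50, 32.1% were highest in control 3. Control 1 and control 3 exceeded the other 4 libraries for 55 members, the exceptions being Ighv5-17 and Igkv4-55, which were high in DMHCA 2. The libraries held 46358654 to 63420620 gene counts, control 3 the fewest.

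**Figure D1:**
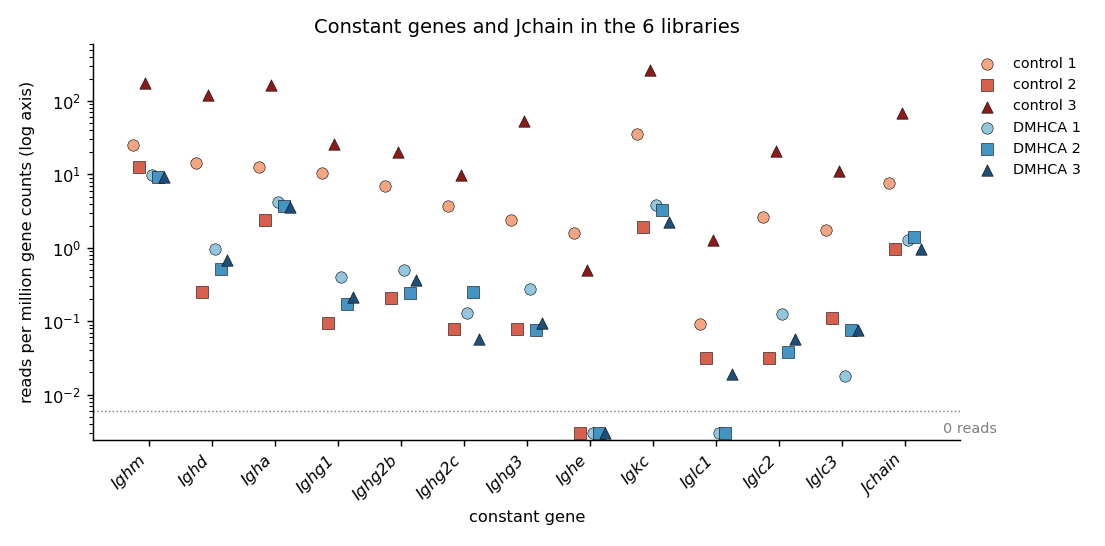
Levels of the 12 constant genes and Jchain. The y axis gives CPM on a log axis, with genes at 0 reads below the dotted line, and each point is 1 library. Control 3 is the highest library for every gene but Ighe, control 1 comes next, and control 2 lies with or near the DMHCA libraries.

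Igkc, the constant part of every kappa light chain, had 1922, 123 and 12185 reads in control 1, 2 and 3, and 214, 171 and 117 reads in DMHCA 1, 2 and 3. Its level of 1.94 CPM in control 2 was below that of each DMHCA library (2.24 to 3.85 CPM), so the groups overlapped. Ighm, the constant gene of IgM, had 1371, 803 and 8218 reads in the controls and 539, 488 and 484 reads with DMHCA. Ighm did not overlap: its lowest control value was 12.7 CPM and its highest DMHCA value 9.70 CPM. Igha, the constant gene of IgA, had 688, 153 and 7685 reads in the controls and 236, 196 and 186 with DMHCA, with control 2 again the lowest library. Jchain had 417, 60.6 and 3196 reads in the controls and 72, 75 and 51 with DMHCA.

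The genes of IgD and IgG spanned a wider range between control 3 and control 2 than Ighm and Igha did. Ighd, co-expressed with Ighm on naive B cells, had 769, 16 and 5623 reads in control 1 to 3 and 53, 27 and 36 in DMHCA 1 to 3. The 4 IgG genes together had 23.5, 0.457 and 109 CPM in control 1 to 3 and 1.296, 0.739 and 0.726 CPM in DMHCA 1 to 3. Control 3 exceeded control 2 by 239-fold for the summed IgG genes and by 36.4-fold for all heavy chain constant genes. Ighe, the constant gene of IgE, was the exception to the order of the libraries, with 85 reads in control 1, 23 in control 3 and 0 in the other 4.

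The light chain and V segment totals followed the constant genes. The Iglc genes, the constant parts of lambda chains, had 239, 11 and 1535 reads in control 1 to 3 and 8, 6 and 8 in DMHCA 1 to 3. Igkv members had 13.5, 0.993 and 69.1 CPM in control 1 to 3 and 1.42, 3.15 and 1.36 CPM in DMHCA 1 to 3, DMHCA 2 being 2.26 times DMHCA 1 and 3 together. Ighv members had 2.37, 0.0946 and 11.9 CPM in control 1 to 3 and 0.297, 0.398 and 0.287 CPM in DMHCA 1 to 3. Iglv1 had 15, 2 and 66 reads in the controls and 4, 3 and 2 with DMHCA, and Iglv3 had 8, 0 and 57 reads in the controls and 0 in each DMHCA library. In all, 22 members were at 0 in control 2 and 6 in every DMHCA library: Igkv4-91, Igkv6-32, Igkv3-5, Igkv10-94, Iglv3 and Ighe. The files list 34 joining and short diversity segments, and none had a count.

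With all 8 heavy chain constant genes as the total, isotype composition separated control 1 and control 3 from the other 4 libraries. Shares were taken from reads per kilobase of gene length, as a percent of the 8 heavy chain constant genes. Ighm made up 27.2%, 73.8% and 25.8% of them in control 1, 2 and 3, and 51.7%, 56.6% and 57.0% in DMHCA 1, 2 and 3. Ighd made up 14.0%, 1.35% and 16.1% in the controls and 4.65%, 2.87% and 3.88% with DMHCA. The IgG genes together made up 36.4%, 3.80% and 22.0% in the controls and 9.83%, 6.54% and 6.40% with DMHCA. The libraries with little immunoglobulin RNA, control 2 included, thus had the highest Ighm shares and the lowest Ighd and IgG shares. Shares of 1 total move against each other: without Ighm and Igha, Ighd made up 26.7%, 26.2% and 42.2% of the other 6 genes in the controls and 32.1%, 30.5% and 37.7% with DMHCA, which did not separate the libraries in that way. Igha varied less, at 20.4%, 21.003% and 36.0% in the controls and 33.8%, 34.0% and 32.7% with DMHCA.

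**Figure D2:**
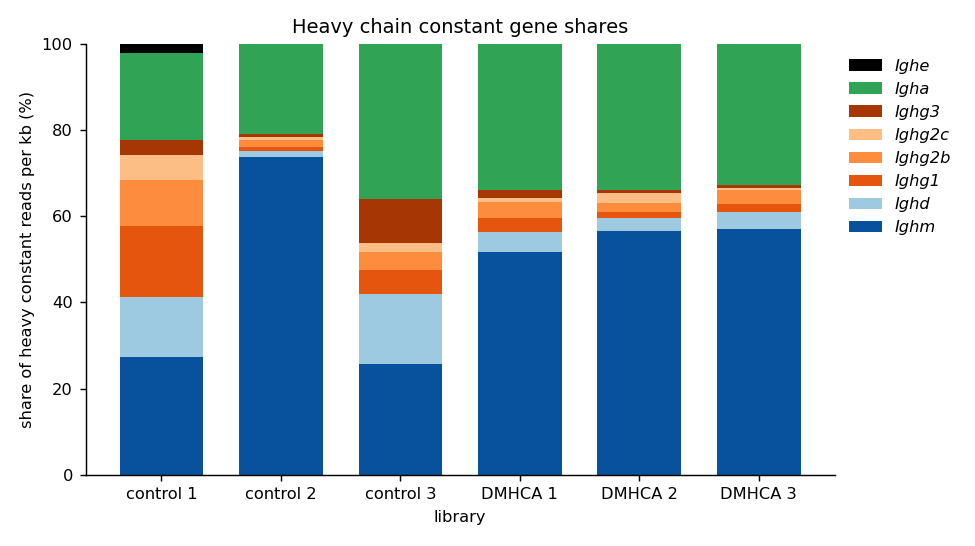
Share of each heavy chain constant gene among the 8, in percent of reads per kilobase, in each library (1 bar each, stacked to 100%). Ighm is 25.8% to 27.2% in control 1 and 3 and 51.7% to 73.8% in the other 4 libraries.

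Between groups these shares overlapped. The mean Ighm share was 42.3% over the 3 controls and 55.4% over the 2 DMHCA samples, with the control range enclosing every DMHCA value. The mean IgG share was 20.7% over the controls and 7.42% with DMHCA, and control 2 lay below each DMHCA library. With 3 against 2 samples the smallest p that an exact two-sided permutation test can give is 0.2, so no test was made. For Ighm, control 2 differed from DMHCA 2 beyond counting error. In control 2, Ighm had 803 of 1001 heavy chain reads, with a 95% Wilson interval of 77.6% to 82.6% as a share of reads, and in DMHCA 2 it had 488 of 750, with an interval of 61.6% to 68.4%. For IgG the interval of control 2 (2.02% to 4.13%, 29 reads) lay below that of DMHCA 1 (6.40% to 9.96%) but overlapped those of DMHCA 2 (3.83% to 7.03%) and DMHCA 3 (3.74% to 6.93%).

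Control 1 and control 3, both rich in immunoglobulin RNA, differed in their switched isotypes. Within IgG, Ighg1 led in control 1 (45.7%, Ighg3 9.23%), whereas Ighg3 led in control 3 (45.7%, Ighg1 25.7%). In reads, control 1 had 563 for Ighg1 and 130 for Ighg3, and control 3 had 1211 and 2473. In CPM, control 3 exceeded control 1 by 22.1-fold for Ighg3, 12.997-fold for Igha and 8.51-fold for Ighd, but by 2.503-fold for Ighg1, 2.88-fold for Ighg2b and 2.71-fold for Ighg2c. Ighe went the other way and made up 1.99% of the heavy chain genes in control 1 and 0.0851% in control 3. In the other 4 libraries it had 0 of 744 to 1001 reads, which allows a share of reads of up to 0.300% in control 2 and 0.403% in DMHCA 3. The IgG subclasses of those libraries rested on 29 to 72 reads a library, and as shares of reads most of their 95% Wilson intervals overlapped. The exceptions were Ighg2c in DMHCA 1 (4.79% to 18.7%), which lay below Ighg1 and Ighg2b, and Ighg2b in DMHCA 3 (34.8% to 65.2%), which lay above Ighg2c and Ighg3.

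Kappa chains predominated in every library. Igkc was 88.9%, 90.9% and 88.9% of the light chain constant genes in control 1, 2 and 3, and 96.7%, 96.4% and 93.2% in DMHCA 1, 2 and 3. The lambda share was therefore 9.12% to 11.1% in the controls and 3.32% to 6.79% with DMHCA, which do not overlap. The DMHCA values rested on 6 to 8 lambda reads a library, and as shares of reads the 95% Wilson interval of control 2 (4.65% to 14.1%) overlapped those of DMHCA 1 (1.84% to 6.95%), DMHCA 2 (1.56% to 7.197%) and DMHCA 3 (3.28% to 12.1%). Iglc2 and Iglc3 share sequence, and a gene on the opposite strand overlaps Iglc1 and Iglc3. Whether the counting used strand was not given in the sources used here.

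Ratios between constant genes also set control 1 and 3 apart. Per kilobase, Ighm was 0.230, 2.11 and 0.218 times Igkc in control 1, 2 and 3, and 0.813, 0.921 and 1.33 times Igkc in DMHCA 1, 2 and 3. Ighm was 1.95, 54.8 and 1.597 times Ighd in the controls and 11.1, 19.8 and 14.7 times with DMHCA. Against Cd79a, the signalling partner of the B cell receptor, Ighm was 2.21-fold and 1.46-fold higher in control 1 and 3, 177-fold in control 2 and 20.7-fold to 33.2-fold with DMHCA. In those 4 libraries the last 2 ratios rested on few reads. Ighd had 16 reads in control 2 and 53, 27 and 36 in DMHCA 1, 2 and 3. Cd79a had 23 and 16 reads in DMHCA 1 and 3 and was near 0 in control 2, so the size of these ratios is uncertain. Ighm RNA thus stood high relative to Igkc, Ighd and Cd79a where immunoglobulin RNA was scarce. Its source in those 4 libraries was not tested.

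V segment use was broad in control 3 and led by a single kappa segment elsewhere. Igkv14-111 had 164, 15 and 168 reads in control 1, 2 and 3, and 20, 85 and 19 reads in DMHCA 1, 2 and 3. As a share of the reads on the 34 Igkv members, it led 5 libraries, with 22.5% in control 1, 23.8% in control 2, 25.3% in DMHCA 1, 51.2% in DMHCA 2 and 26.8% in DMHCA 3. In control 3 Igkv10-96 led with 268 reads, 8.36% of the total. The 95% Wilson interval of the leading share in DMHCA 2 was 43.7% to 58.7%, above those of the other 5 libraries, whose highest bound was 38.1%. DMHCA 2 also had 22 reads of Igkv15-103, against 2 and 8 in DMHCA 1 and 3 and 36, 0 and 62 in the controls. Both segments have only unique 50-base words among the annotated transcripts, and their expected counts were whole in every library. Whether relatives in the FVB strain share their reads was not tested.

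**Figure D3:**
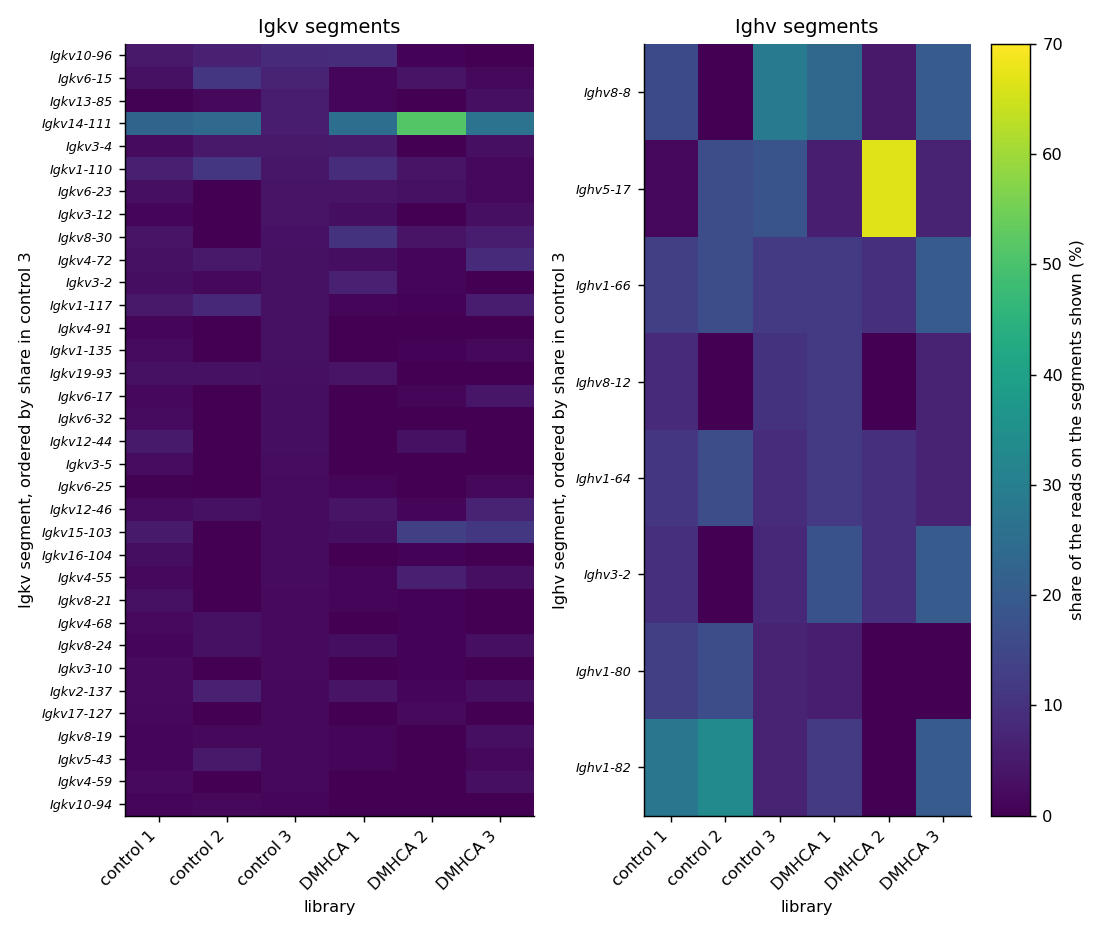
Share of each Igkv member (left) and Ighv member (right) among the reads on the members of its family, in percent, by library. Segments are ordered by their share in control 3, and colour runs from 0% to 70%. Igkv14-111 stands out in every library but control 3 and reaches 51.2% in DMHCA 2, where Ighv5-17 holds 14 of 21 reads.

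The effective number of kappa segments followed the same pattern. The inverse Simpson number, which is the number of equally used segments that would give the same evenness, was 13.5, 10.7 and 26.3 in control 1, 2 and 3, and 10.6, 3.49 and 10.1 in DMHCA 1, 2 and 3. The means were 16.8 for the controls and 7.13 for the 2 DMHCA samples, and DMHCA 2 was the lowest library. At 63 drawn reads, the total of control 2, the mean number of members seen was 24.4, 17 and 26.8 in the controls and 20.2, 14.5 and 20.2 with DMHCA. With at least 3 reads, 34 of the 34 members were detected in control 1 and in control 3, 9 in control 2, and 10, 9 and 7 in DMHCA 1, 2 and 3. The number detected moved with the number of Igkv reads, which was 730, 63 and 3204 in the controls and 79, 166 and 71 with DMHCA, DMHCA 2 having more reads but fewer segments for its depth.

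Counting every named segment widened the picture without changing the order of the extremes. Over 160 Igkv genes the inverse Simpson number was 38.4 in control 3, 18.8 in control 1, 17.2 in DMHCA 1, 14.2 in DMHCA 3, 12.7 in control 2 and 3.67 in DMHCA 2. The 34 members took 77.5% to 97.6% of all Igkv reads, whereas the 8 Ighv members took 35.3% to 72.4% of all Ighv reads. Control 3 had 100 Ighv genes with a read among 1440 reads, and control 1 had 69 among 297. The inverse Simpson number over 185 Ighv genes was 31.3 in control 3, below the 38.4 of Igkv, and 27.5 in control 1, above the 18.8 of Igkv. At 297 drawn reads control 3 gave 69.3 genes, which differs from control 1 by under 1 gene, and for Igkv at 870 reads control 1 had 72 and control 3 78.9. Genes annotated as pseudogenes held 6.73% of Ighv reads in control 1 and 6.81% in control 3, and 1 member, Ighv3-2, is one.

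**Figure D4:**
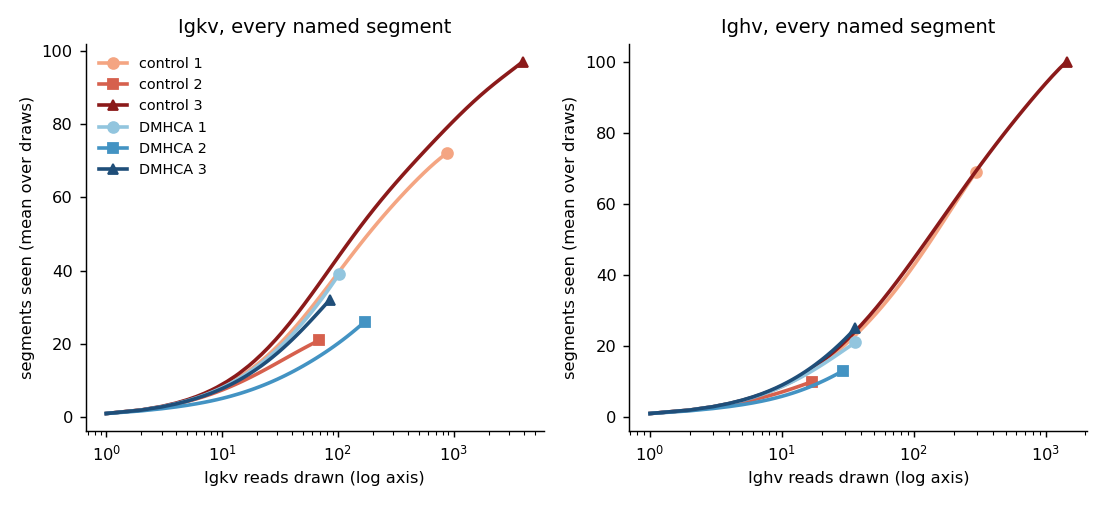
Mean number of Igkv (left) and Ighv (right) segments seen against the number of reads drawn (log axis), over every named segment, for the 6 libraries. Markers show the full depth. Control 1 and control 3 nearly coincide for Ighv, and DMHCA 2 runs lowest for Igkv.

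Ighv reads were few outside control 1 and control 3. Control 2 had 17 and the DMHCA libraries 29 to 36 over 185 genes. Ighv5-17 had 2, 1 and 100 reads in control 1, 2 and 3, and 1, 14 and 1 in DMHCA 1, 2 and 3. Its 14 reads were 48.3% of all Ighv reads of DMHCA 2, with a 95% Wilson interval of 31.4% to 65.6%. DMHCA 2 thus had 1 leading heavy segment and 1 leading kappa segment, and whether they come from the same cells cannot be told from bulk counts. In control 2 the leading Ighv gene over all names was not a member (Ighv1-81, 5 reads), and in DMHCA 1 the member Ighv8-8 and Ighv1-7, not a member, had 4 reads each.

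Control 1 and control 3 divided their reads differently among V segments. As a share of all reads of its family, Igkv14-111 was 18.9% in control 1 and 4.25% in control 3, a ratio of 0.226 (95% exact interval for counting error 0.181 to 0.281). Ighv1-82 had 35 reads (11.8%) in control 1 and 39 reads (2.71%) in control 3, a ratio of 0.230. In the other direction, Igkv13-85 had 3 and 174 reads, a ratio of 12.8 (interval 4.30 to 62.5), and Ighv5-17 had 2 and 100 reads, a ratio of 10.3. Of the 42 Ighv and Igkv members, the interval lay above 1 for 9, below 1 for 6 and held 1 for 27. In CPM, each of the 44 V members was higher in control 3, by a median of 5.55-fold (range 1.19 to 59.0). Of the abundant heavy segments, Ighv8-8 took 6.73% in control 1 and 11.04% in control 3 (ratio 1.64, interval 1.03 to 2.76), and Ighv1-66 took 5.72% and 4.51%, with an interval that held 1 (0.457 to 1.44). Segments detected with at least 3 reads in control 1 were nearly all detected in control 3 as well: 52 of 52 Igkv (62.7% of the 83 of control 3) and 28 of 30 Ighv (39.4% of the 71 of control 3).

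The comparison of DMHCA with control asked whether immunoglobulin genes differed with treatment. In edgeR's quasi-likelihood test with Benjamini-Hochberg adjustment over 19427 genes, 46 of the 57 members passed the filter on low counts. No member reached an adjusted p of 0.05: their adjusted p ran from 0.644 to 0.809, and 0% of all genes tested passed. Before adjustment 28 of the 46 were lower with DMHCA at p under 0.05, against 4.08% of all genes tested, and 0 were higher, against 3.53%. All 46 had a negative log2 fold change (52% of all genes), with a median of -4.63, against -0.03 over all genes tested. Members could pass the filter through the 2 controls in which they were high, so these counts do not support a difference. For 10 of the 46 every control sample lay above both DMHCA samples, as it did for 12.2% of all genes.

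Single genes showed how wide the spread was. Ighm differed by a log2 fold change of -2.86 (SE 1.10, edgeR adjusted p = 0.644) and Igkc by -4.90 (SE 1.81). Ighd stood at -5.97 (SE 2.22), Igha at -3.89 (SE 1.66), Jchain at -4.25 (SE 1.65) and Ighg3 at -6.97 (SE 2.60). Ighg1 (-5.56), Ighg2b (-4.62) and Ighg2c (-4.69) lay between them, and the value of Ighe depends on the prior count because both DMHCA samples are at 0. The smallest unadjusted p belonged to Igkv1-117 (-4.64), Iglc3 (-6.04) and Ighv1-80 (-5.55), at 0.0179 to 0.0199. Iglc1, under the filter, had 5, 2 and 59 reads in the controls and 0, 0 and 1 with DMHCA. Igkv14-111, the leading kappa segment, had the change nearest 0, at -1.17 (SE 1.14).

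These values rested on control 3. Without control 3, 12 members passed the filter, and 2 were lower at an unadjusted p under 0.05 (3.27% of all genes). The median log2 fold change over these 12 was -2.14. The median of -4.63 with control 3 was over 46 members, so these medians do not cover the same genes. Ighm then stood at -1.05, Igha at -0.98, Jchain at -1.75 and Igkc at -2.54. The IgG genes then lay between -3.14 (Ighg3) and -4.39 (Ighg1), with control 1 the higher of the 2 controls left. DESeq2 on the 6 libraries as separate samples called 25 of 55 members lower at an adjusted p under 0.05 (1.62% of all genes), and on the same 5 samples as above 6 of 57 (0.549%). The call thus depended on the method and on the count of the near-identical pair as 1 sample or 2.

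Genes of B cells moved with the immunoglobulin genes. All 16 genes of a B cell identity list, which holds the receptor partners Cd79a and Cd79b, the surface proteins Ms4a1 and Cr2 and the regulators Pax5 and Ebf1, were highest in control 3, with control 1 next. Their summed level was 96.5, 15.1 and 745 CPM in control 1, 2 and 3, and 13.7, 13.3 and 14.0 CPM in DMHCA 1, 2 and 3. Of those in control 2, 11.1 CPM were Ebf1 alone, which adipocyte and stromal cells also express, and Cd79a (0.0631 CPM) and Ms4a1 (0.0639 CPM) were near 0. With DMHCA 13 of the 16 were lower at an unadjusted p under 0.05 (4.08% of all genes) and 0 after adjustment by edgeR, with a median log2 fold change of -5.93. Without control 3, 11 of the 16 were tested and 2 were lower (3.27% of all genes), and the median over these 11 was -2.22, against -4.84 for the same genes with it. As with the members, genes could pass the filter through the controls in which they were high. DESeq2 on 6 libraries called all 16 lower at an adjusted p under 0.05 (1.62% of all genes). Cr2 (-7.99), Cd79a (-6.89), Ms4a1 (-6.39) and Ebf1 (-1.72) were the most abundant of them.

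**Figure D5:**
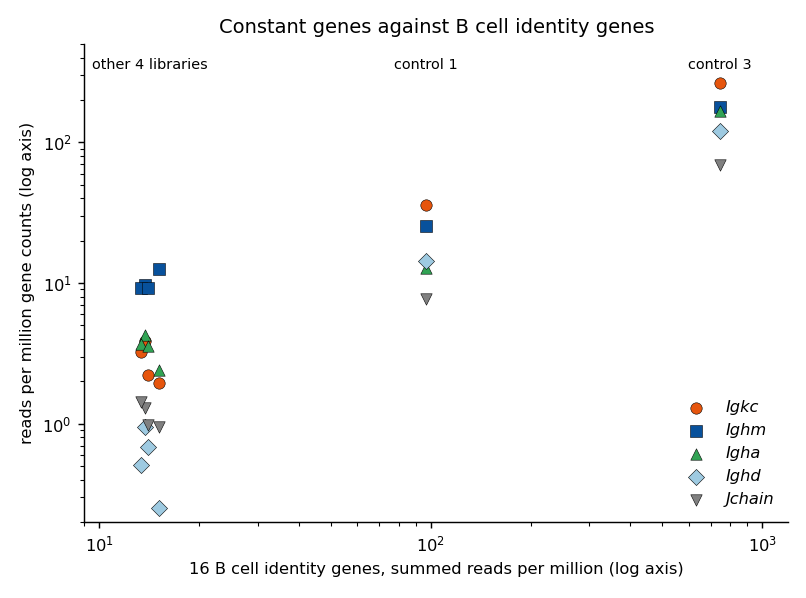
Levels of Igkc, Ighm, Igha, Ighd and Jchain (y axis) against the summed level of the 16 B cell identity genes (x axis), both in CPM on log axes, with 5 points for each of the 6 libraries. The constant genes rise with the B cell genes through control 1 and control 3, and among the other 4 libraries Ighm is the highest of the 5.

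Genes of antibody secretion and diversification showed no common pattern. Of 11 plasma cell and secretion genes tested, 2 were lower at an unadjusted p under 0.05 (4.08% of all genes): Mzb1, a chaperone of IgM assembly (79, 2 and 540 reads in control 1 to 3, and 0, 4 and 11 in DMHCA 1 to 3), and Slamf7. Without control 3, 1 of 10 was lower (3.27% of all genes). Xbp1 (log2 fold change 0.02), Pdia4 (-0.17), Txndc5 (0.21) and Sdc1 (-0.98), which epithelial cells also express, were far more abundant and did not pass. Among 10 germinal centre and class switch genes, 2 were higher at an unadjusted p under 0.05 (3.53% of all genes) and 1 lower (4.08%). The higher ones were Mki67, a marker of dividing cells, and the repair enzyme Ung, with log2 fold changes of 1.44 and 1.04. The median over the 10 was -1.31. By CPM, 7 of the 11 listed genes were highest in control 3 (32.1% of all genes with a summed count of at least 50). For 6 of the 11, control 1 and control 3 exceeded the other 4 libraries. Without control 3, 1 of 9 was higher (2.16% of all genes) and 0 were lower (3.27%). No gene of these lists reached an adjusted p of 0.05 in edgeR, whereas DESeq2 on 6 libraries called Slamf7 lower (1.62% of all genes) and Mki67 higher (0.78%).

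Of the V(D)J recombination and pre-B cell genes, the recombinase genes were scarce: Rag1 had 0 to 31 reads in a library and Rag2 0 to 1. The surrogate light chain gene Igll1 had 0 to 3 reads. The DNA repair genes Dclre1c (mean 12.4 CPM) and Lig4 (8.83 CPM) and the receptor gene Il7r (9.33 CPM), which other cells also express, were the abundant genes of that list. Of its 5 genes tested in edgeR, 0 were lower (4.08% of all genes) or higher (3.53%) at an unadjusted p under 0.05. DESeq2 on 6 libraries called Il7r and Vpreb3, a pre-B cell gene, lower at an adjusted p under 0.05 (1.62%). Of 10 genes of Fc receptors and antibody transport, 1 was lower at an unadjusted p under 0.05 (4.08% of all genes), and 0 of 9 without control 3 (3.27%). It was Fcmr, the IgM Fc receptor of lymphocytes, with 138, 1 and 894 reads in the controls and 7, 5 and 7 with DMHCA. DESeq2 on 6 libraries also called Fcmr lower, at an adjusted p under 0.05 (1.62%). Pigr, which carries polymeric IgA and IgM across epithelium, had 105, 145 and 190 CPM in control 1 to 3 and 95.2, 20.6 and 94.0 CPM in DMHCA 1 to 3 (log2 fold change -1.34, SE 0.65). Fcgrt (-0.11), Trim21 (0.14) and Fcgr2b (-0.54) also did not pass. Pigr was thus lowest in DMHCA 2, where Igha (196 reads) was at the level of DMHCA 1 and 3.

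Summed markers of lymph node, T cells and adipocytes were also highest in control 3, with control 1 next. The 10 measured genes of lymph node stroma and lymphoid follicles summed to 88.1, 4.34 and 913 CPM in control 1, 2 and 3, and to 11.3, 4.81 and 10.6 CPM in DMHCA 1, 2 and 3. Cr2 is on this list and on the B cell list. Glycam1, a product of high endothelial venules and of mammary epithelium, had 2105, 19 and 20019 reads in the controls and 62, 29 and 18 with DMHCA. The 10 T cell genes summed to 42.1, 7.24 and 349 CPM in the controls and 12.8 to 18.0 CPM with DMHCA, and the 5 adipocyte genes to 133, 84.4 and 650 CPM and 36.4 to 38.9 CPM. Unlike the immunoglobulin total, the adipocyte total of control 2 lay above that of each DMHCA library. For 5 of 5 adipocyte genes every control sample lay above both DMHCA samples (12.2% of all genes). At an unadjusted p under 0.05 (4.08% of all genes), 6 of 10 lymph node, 1 of 10 T cell and 5 of 5 adipocyte genes were lower. Without control 3 (3.27% of all genes) these were 2 of 7, 0 of 10 and 5 of 5. At an adjusted p under 0.05 edgeR called 0 genes of these lists, and 2 adipocyte genes (Adipoq and Cidec) with no filter beyond 1 count, whereas DESeq2 on 6 libraries (1.62% of all genes) called 6 lymph node, 4 T cell and 5 adipocyte genes lower. The 8 mammary tumor epithelium genes summed to 5093 to 6271 CPM in the controls and 6963 to 7004 CPM with DMHCA, and the 5 skeletal muscle genes to 525 to 960 CPM and 185 to 804 CPM, with 0 lower in either list. The part of these tissues in the immunoglobulin values was not tested.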

How the data were processed

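RNA from 3 control and 3 DMHCA tissues was sequenced by an outside company that the study's methods name. Per these methods and the submitters' processing notes reads were checked with FastQC 0.11.9, trimmed with cutadapt 2.9, aligned with Bowtie2 2.4.1 (mm10) and quantified with RSEM 1.3.1. The deposited expected counts estimate reads per gene and divide reads that fit several genes, which matters for V segments. The authors also deposited TPM and FPKM; TPM was used as an alternative and FPKM was not used. Groups came from the labels. The members and the gene lists were chosen with earlier results of these data known.

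Expected counts were rounded to whole numbers. Of the 44 V members, 32 had a count that was not whole (over 0.005 off) in some library. CPM is expected counts per 1000000 gene counts of a library, and shares of constant genes used counts per kilobase of the deposited length. Tests used edgeR 4.0.16 (TMM, filterByExpr, quasi-likelihood, R 4.3.3) with no covariate, and DESeq2 1.42.0 as an alternative. The 3 DMHCA labels count as replicates, but DMHCA 1 and 3 differed so little that they were summed. Nothing in the labels says that libraries are separate animals beyond the study's text, so p-values measure the spread between these samples. Wilson intervals and the 3-count limit behind a count of 0 (confidence level 95%) cover counting error only. The study's methods mention no molecular identifiers. Inverse Simpson numbers are the inverse of an unbiased Simpson index, which does not make them unbiased, and at few reads they can exceed the number of segments. Rarefaction is exact. Word uniqueness was computed over GENCODE M21 transcripts with words of 50 bases. The test code was checked on simulated data.

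Genes named were each constant gene and Jchain, the 3 highest Ighv, Igkv and Iglv genes by mean CPM, the highest Ighv and Igkv of each library, the genes next to the threshold, the 3 members with the smallest p and up to 4 abundant genes of each list. Igkv13-85, Igkv15-103 and Igkv4-55, the 6 members at 0 with DMHCA, Ighv3-2, and Mzb1, Slamf7, Vpreb3, Fcmr, Rag1, Rag2 and Igll1 were named after their values were seen. Values of some list genes are not reported here. Alternatives covered the test, normalization, filter, replicate block, count of the near-identical pair, length scale and each library left out.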

Additional observations from a re-analysis of the deposited data

How the results depend on the processing

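The count of members at an adjusted p under 0.05 was 0 in edgeR under every alternative run, 0 to 0 with each library left out. It was 6 of 57 in DESeq2 on the same samples (0.549% of all genes lower) and 25 of 55 in DESeq2 on 6 libraries (1.62%). For the B lineage and antibody lists it was 0 in edgeR (0 to 0), and 5 and 21 in the DESeq2 fits, with the same shares over all genes. The 21 include Mki67, which was higher with DMHCA (0.78% of all genes), and the others were lower. The 28 of 46 members lower at an unadjusted p under 0.05 became 9 of 11 with 6 separate libraries in edgeR (8.03% of all genes), 47 of 55 in DESeq2 on 6 libraries (6.21%), 53 of 57 with no filter beyond 1 count (5.1%) and 5 of 7 with at least 10 counts in every library (3.64%). Leaving out 1 library gave 1 to 42: 8 of 13 without control 1 (3.37% of all genes), 42 of 46 without control 2 (6.48%), 2 of 12 without control 3 (3.27%) and 1 of 57 without DMHCA 2 (1.48%), which leaves 1 DMHCA sample assumed to vary like the controls. With the same shares over all genes, the 13 of 16 B cell identity genes became 3 of 6 with at least 10 counts in every library and 0 to 16 with 1 library left out (8 of 11 without control 1, 16 of 16 without control 2, 2 of 11 without control 3, 0 of 16 without DMHCA 2).

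Replicate numbers are shared by the groups, but deviations of same-numbered libraries correlated at -0.11, 0.36 and 0.41, so the numbers were not taken as pairs. With the replicate block over 6 libraries, 2 of 11 members (8.08% of all genes) and 2 of 11 B cell identity genes were lower at an unadjusted p under 0.05.

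Of 279 alternative log2 fold changes for 25 named members, 257 kept direction without a call, 21 were called lower by DESeq2 and 1 reversed: Igkv4-55, at 0.15 without control 3 (-2.20 with it, and -3.94 to 0.15 over the libraries left out). The mean Ighm share with DMHCA was 63.6% and the IgG share 5.95% as shares of reads without length. With 1 library left out the mean Ighm share ran from 26.5% to 50.5% (controls) and 54.1% to 56.8% (DMHCA), and the IgG share from 12.9% to 29.2% and 6.47% to 8.29%. The mean inverse Simpson number ran from 12.1 to 19.9 and 6.78 to 10.8, the leading Igkv share from 15.4% to 23.1% and 26.0% to 39.0%, and the number of Igkv members detected from 21.5 to 34 and 8 to 19. That number (25.7 and 14 as means) was 48.3 in the controls over every V segment, and 23.5 at 1 count and 3 at 10 counts with DMHCA. The log2 ratio of the summed level (-4.17) ran from -4.73 to -1.88, the last without control 3. Depth limits the segment results of control 2 and the DMHCA libraries, which hold few V reads. Other alternatives moved the means by less than the spread between samples.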

Other observations

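DMHCA 1 and DMHCA 3 were close enough over all genes to be counted as 1 sample, yet Igkc differed between them beyond counting error. It had 214 and 117 reads, a ratio of CPM of 1.72 (95% exact interval 1.37 to 2.18), and all members together had a ratio of 1.21 (1.11 to 1.31). The intervals of Ighm (539 and 484 reads, ratio 1.05, interval 0.926 to 1.19), Igha (0.982 to 1.46), Ighd, Jchain, Ighg1, Ighg2b, Ighg3 and Igkv14-111 held 1. These genes were chosen after their values were seen.

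Igkv segments lie in both orientations relative to Igkc. Those on the strand of Igkc, which join it by deletion, held 53.7%, 50.7% and 42.0% of all Igkv reads in control 1, 2 and 3, and 52.0%, 74.7% and 56.5% in DMHCA 1, 2 and 3. The value of DMHCA 2 includes its 85 reads of Igkv14-111. Among heavy chain families, Ighv1 held 60.3% of Ighv reads in control 1 and 48.2% in control 3, and Ighv5 held 51.7% in DMHCA 2 against 2.78% to 9.24% in the other 5 libraries.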
